A study of Mus musculus with 2 samples.

Results

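The fibroblasts described here were single-cell barcodes from mouse colorectal tumours that carried collagen-type matrix RNA and at least 2 unique molecular identifiers (UMIs, counts of distinct RNA molecules) summed over the 6 genes C7, Adamtsl3, Kcnn3, Myoc, Angptl1 and Rxfp1. Barcodes with fewer than 200 genes detected or over 25% of UMIs from mitochondrial genes were dropped. It was called stromal when Col1a1, Col1a2, Col3a1, Dcn, Lum and Col6a1 summed to at least 5 UMIs, the epithelial genes Epcam, Krt8, Krt18 and Cldn7 to under 12, and the endothelial genes Pecam1 and Cdh5 were at 0. Members also had under 2 UMIs over Pi16, Clec3b, Pcolce2 and Cd248, and under 2 over Adamdec1, Tcf21 and Edil3. In all, 58 of 26153 kept barcodes were members, 36 of 12270 in the WT library and 22 of 13883 in the STK25 wKO library.

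The libraries came from pooled tumours of wild-type mice and of mice lacking the kinase STK25 in the whole body (STK25 wKO). Both were given azoxymethane and dextran sulphate sodium (AOM/DSS), a carcinogen and a colitis agent that together induce colon tumours. The study reanalysed these libraries, which its authors had published before. It asked how tumour cells and cancer-associated fibroblasts (CAFs) signal to each other. The tumours were dissociated with trypsin and loaded on a 10x Genomics 3′ chip. Strain, age and the number of animals pooled are not given in the sources used here. Each group was 1 library of pooled tumours, so no difference between groups has a replicate check, and intervals here are 95% intervals that cover counting error only.

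The WT library held 38737373 UMIs and the STK25 wKO library 66297749, with medians of 1383 and 2091 UMIs per kept barcode. Stk25 itself stood at 118 UMIs per 1000000 (CPM) in kept barcodes of the library labelled WT and at 127 CPM in the library labelled STK25 wKO. It was thus not lower in the library labelled as the knockout. The sources used here do not say which part of the gene was deleted, and a 3′ tag outside that part would not show a deletion. In members it gave 3 UMIs in the WT library and 6 in the STK25 wKO library. The libraries shared 230 barcode sequences, 1 of them a WT member and none an STK25 wKO member.

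Fibroblasts of the gut wall build the collagen and proteoglycan matrix, and their kinds differ by layer. Pi16 and Clec3b are known from fibroblasts around vessels and in the submucosa, whereas Adamdec1 and Tcf21 are known from those of the lamina propria beside the crypts. Within the muscle layers lie PDGFRA-positive interstitial cells, which couple to smooth muscle and use the potassium channel of Kcnn3 to relay inhibitory nerve signals. Among the other genes of the rule, C7 encodes a component of the terminal complement pathway, and Adamtsl3 a secreted matrix protein that resembles ADAMTS proteases but lacks the protease domain. Myoc encodes myocilin, a secreted glycoprotein best known from the eye, Angptl1 an angiopoietin-like secreted factor, and Rxfp1 the receptor of the hormone relaxin.

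On the mouse assembly GRCm38 (mm10), C7 (ENSMUSG00000079105) lies on chromosome 15 from 4988762 to 5063740 on the minus strand. Adamtsl3 (ENSMUSG00000070469) lies on chromosome 7 from 82335694 to 82614450 on the plus strand. Kcnn3 (ENSMUSG00000000794) lies on chromosome 3 from 89520164 to 89675132 on the plus strand, and Rxfp1 (ENSMUSG00000034009) on the same chromosome from 79641611 to 79737880 on the minus strand. Myoc (ENSMUSG00000026697) and Angptl1 (ENSMUSG00000033544) lie on the plus strand of chromosome 1, from 162639155 to 162649693 and from 156838562 to 156861078. Their spans, introns included, run from 10.5 kb for Myoc to 279 kb for Adamtsl3, so the UMIs of different genes are not compared as amounts of transcript.

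The libraries differed in which of the 6 genes had brought their members in. In the WT library C7 was detected in 16 of 36 members, Adamtsl3 in 15 and Kcnn3 in 14, whereas Rxfp1 was detected in 5, Myoc in 4 and Angptl1 in 6. In the STK25 wKO library Rxfp1 was detected in 14 of 22 members and Myoc in 8, whereas C7 was detected in 2, Adamtsl3 in 4, Kcnn3 in 3 and Angptl1 in 2. Members were selected on these UMIs, so the values are given as a description and nothing is read from their sizes.

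C7 gave 117 UMIs in the WT members and 7 in the STK25 wKO members. Among WT members that had it, C7 ran from 1 to 26 UMIs with a median of 5.5, and the pair of STK25 wKO members with C7 had 2 and 5. The per-library levels were 1250 CPM (1034 to 1499) and 93.3 CPM (37.5 to 192). Rxfp1 went the other way, with 11 UMIs in WT members and 68 in STK25 wKO members. Its highest single value was 6 UMIs in the WT library and 12 in the STK25 wKO library. Myoc gave 9 UMIs and 46 UMIs, of which 31 lay in 1 STK25 wKO member. Adamtsl3 gave 49 and 9 UMIs, Kcnn3 46 and 8, and Angptl1 12 and 2. The values overlapped between libraries for each gene, since members at 0 were found in both; only Rxfp1 in the STK25 wKO library was detected in most members.

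**Figure D1:**
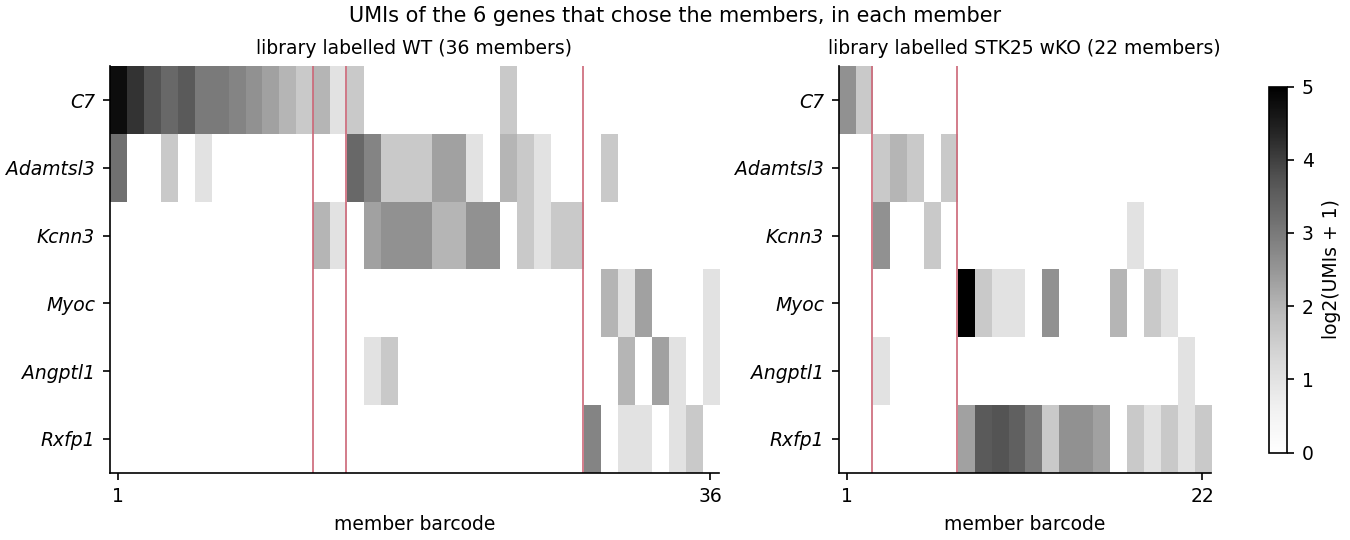
UMIs of each of the 6 genes in every member of the WT library (36 columns) and the STK25 wKO library (22 columns). C7, Adamtsl3 and Kcnn3 fill most of the WT columns, whereas Rxfp1, in 14 of 22 members, fills most of the STK25 wKO columns.

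The genes also fell into groups by barcode. Adamtsl3 and Kcnn3 occurred together in 9 WT members and 1 STK25 wKO member, and Myoc with Rxfp1 in 2 and 7. C7 was seen with Adamtsl3 in 5 WT members and with Kcnn3 in 2, but in no member of either library with Myoc, Angptl1 or Rxfp1. At a median of 2564 UMIs per WT member and 2932 per STK25 wKO member, a gene at 0 may have been missed. Only 3 WT members and 1 STK25 wKO member held 3 or more of the 6 genes, and 15 and 12 held a single one.

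Sorted by the gene or genes with most UMIs, a grouping chosen after the values were seen, 12 WT and 2 STK25 wKO members were led by C7. A further 14 and 5 were led by Adamtsl3 or Kcnn3, 8 and 15 by Rxfp1, Myoc or Angptl1, and 2 WT members by none of these. Split instead by whether Myoc and Angptl1 outweighed the other 4 genes, 5 WT members (13.9%) and 4 STK25 wKO members (18.2%) fell on the Myoc and Angptl1 side. The values thus do not show 1 cell type that carries all 6 genes, and the barcodes are called below by their rule, as members, or by the gene that led them.

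Among leukocytes and epithelial barcodes the 6 genes were seldom detected, and endothelial and muscle barcodes were not measured for this. None of 31 B cells in the WT library or 20 in the STK25 wKO library had a UMI of any of them, which allows shares of barcodes with a UMI of up to 9.68% and 15%, at median depths of 1999 and 1578 UMIs. Of 727 and 298 barcodes with at least 2 UMIs of the leukocyte gene Ptprc, a set that can include B cells, 3 and 5 had any such UMI and none had a sum of 2. Their median depths were 1524 and 2171 UMIs, against 2564 and 2932 in members. Of 1319 and 3126 epithelial barcodes, which were deeper at medians of 8644 and 10441 UMIs, 32 (2.43%) and 45 (1.44%) had any such UMI, and 2 and 10 had a sum of at least 2.

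Over all 514 WT and 657 STK25 wKO stromal barcodes, where the sum of the 6 genes set no condition, the pattern was narrower. C7 gave 375 UMIs in 82 WT barcodes and 35 UMIs in 20 STK25 wKO barcodes, a log2 ratio of STK25 wKO to WT of -3.91 (-4.45 to -3.41). Kcnn3 was also lower, at 169 against 72 UMIs (log2 ratio -1.72), followed by Angptl1 at 81 against 63 (-0.85) and Adamtsl3 at 159 against 145 (-0.62). Rxfp1 stood at 75 and 141 UMIs (0.42, 0.01 to 0.85) and Myoc at 192 and 315 UMIs (0.23, -0.04 to 0.49). The Rxfp1 interval ends just above 0 and the Myoc interval includes 0, while the C7 interval lies far below it.

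Members held only a part of these transcripts. Of the stromal UMIs of C7, 31.2% lay in members in the WT library and 20.0% in the STK25 wKO library. For Myoc the shares were 4.69% and 14.6%, and for Rxfp1 14.7% and 48.2%. Most barcodes with a 6-gene sum of at least 2 were left out by the conditions on Pi16 and Adamdec1: 140 WT and 126 STK25 wKO stromal barcodes reached that sum, and 25.7% and 17.5% of them were members. Of the rest, 75 and 85 failed on the Pi16 sum alone, 5 and 3 on the Adamdec1 sum alone, and 24 and 16 on both. These left-out barcodes had more matrix RNA, with a median of 69 UMIs over the 6 matrix genes in the WT library and 74.5 in the STK25 wKO library, against 12 in members of each library. C7 was detected in 51 of the 104 left out in the WT library and in 9 of the 104 in the STK25 wKO library.

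**Figure D2:**
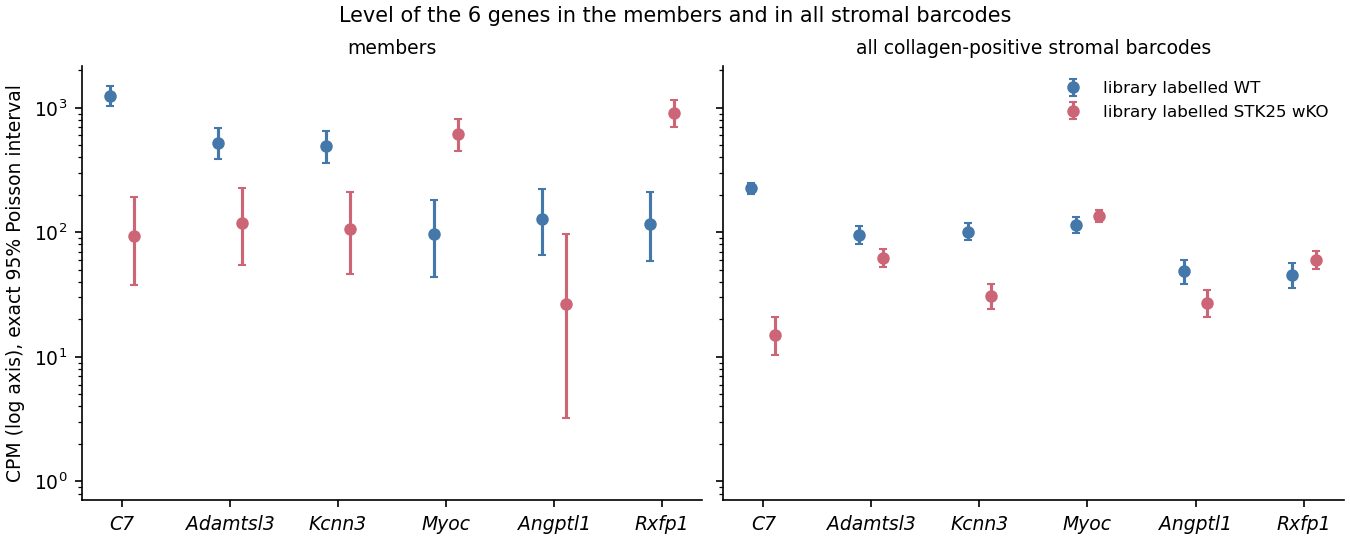
CPM of each of the 6 genes in members and in all stromal barcodes of the WT and STK25 wKO libraries, on a log axis, with exact Poisson 95% intervals. C7 is lower in the STK25 wKO library in both, while Myoc and Rxfp1 are apart in members and close in all stromal barcodes. Members were selected on these genes, so their values are a description only.

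Members made up 0.293% of kept WT barcodes (Clopper-Pearson interval 0.206% to 0.406%) and 0.158% of kept STK25 wKO barcodes (0.0993% to 0.240%). The ratio was 0.540, with combined bounds of 0.245 to 1.17, which include 1. The bounds excluded 1 when the epithelial sum had to be under 3 (0.231, 0.0564 to 0.791) and when each barcode was thinned to 1000 UMIs (0.268, 0.0987 to 0.679). Within stromal barcodes the shares were 7.0% (4.95% to 9.56%) and 3.35% (2.11% to 5.03%), a ratio of 0.478 (0.221 to 1.01), or 0.275 (0.103 to 0.684) after thinning. The bounds of that ratio also excluded 1 without the smooth muscle barcode described below (0.456, 0.208 to 0.978) and under a stricter filter on genes and mitochondrial UMIs (0.463, 0.214 to 0.982). Without the conditions on Pi16 and Adamdec1 the shares of stromal barcodes were 27.2% and 19.2%, a ratio of 0.704 (0.519 to 0.956). All these shares count barcodes by the 6-gene sum, and C7 gave 375 stromal UMIs in the WT library and 35 in the STK25 wKO library. A smaller share thus cannot be told apart from a lower level of the genes of the rule. Just inside the threshold, 8 WT and 6 STK25 wKO members had a 6-gene sum of exactly 2, with median depths of 2240.5 and 2207 UMIs. Just outside it, 18 and 14 barcodes met every other condition with a sum of 1, at 1728.5 and 1906.5 UMIs.

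A single STK25 wKO member stood apart as a smooth muscle barcode. It held 11769 of the 75010 UMIs of all STK25 wKO members, and its 6-gene sum was 1 UMI of Angptl1 and 1 of Rxfp1. The contractile genes were at 488 UMIs for Acta2, 290 for Tagln, 120 for Des and 96 for Myh11. All other members of that library together had 1 UMI of Acta2 and none of Tagln or Myh11. It was the only member with at least 10 UMIs over Myh11, Actg2, Cnn1 and Des, and results that rest on it are given with and without it.

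Members of both libraries were rich in RNA from long genes, those that span at least 100 kb including introns. Such genes gave 32.1% of UMIs in WT members and 28.3% in STK25 wKO members, or 31.7% without the smooth muscle barcode. In the Pi16 Clec3b set (stromal barcodes with at least 2 UMIs over Pi16, Clec3b, Pcolce2 and Cd248 and the other sums under 2; 112 WT and 184 STK25 wKO) the shares were 17.7% and 15.6%. In the Adamdec1 Tcf21 set (made the same way from Adamdec1, Tcf21 and Edil3; 44 and 43) they were 23.5% and 22.1%. Single members ran from 9.52% to 47.3% with a median of 33.4% in the WT library, and from 10.0% to 42.6% with a median of 32.7% in the STK25 wKO library. A share of at least 25% was seen in 27 of 36 and 18 of 22 members, in 17 of 112 and 19 of 184 Pi16 Clec3b barcodes, and in 19 of 44 and 12 of 43 Adamdec1 Tcf21 barcodes. The ranges overlapped, but the members' medians were the highest of these 3 sets in both libraries. Over all 140 WT and 126 STK25 wKO stromal barcodes with a 6-gene sum of at least 2, members included, long genes gave 20.0% and 17.3% of UMIs. The barcodes left out by the Pi16 and Adamdec1 conditions thus had a lower share than members. A high share was not a trait of all barcodes with the 6 genes.

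Other measures of RNA content moved the same way. Malat1, a long non-coding RNA held in the nucleus, took 2.87% and 3.04% of members' UMIs, against 1.10% and 0.966% in the Pi16 Clec3b set and 1.61% and 1.47% in the Adamdec1 Tcf21 set. Ribosomal protein genes took 5.76% and 5.26% in members, against 12.8% and 11.4% in the Pi16 Clec3b set and 6.75% and 6.47% in the Adamdec1 Tcf21 set. The part that RNA content played in the comparisons with these sets was not tested beyond the matched comparison below.

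**Figure D3:**
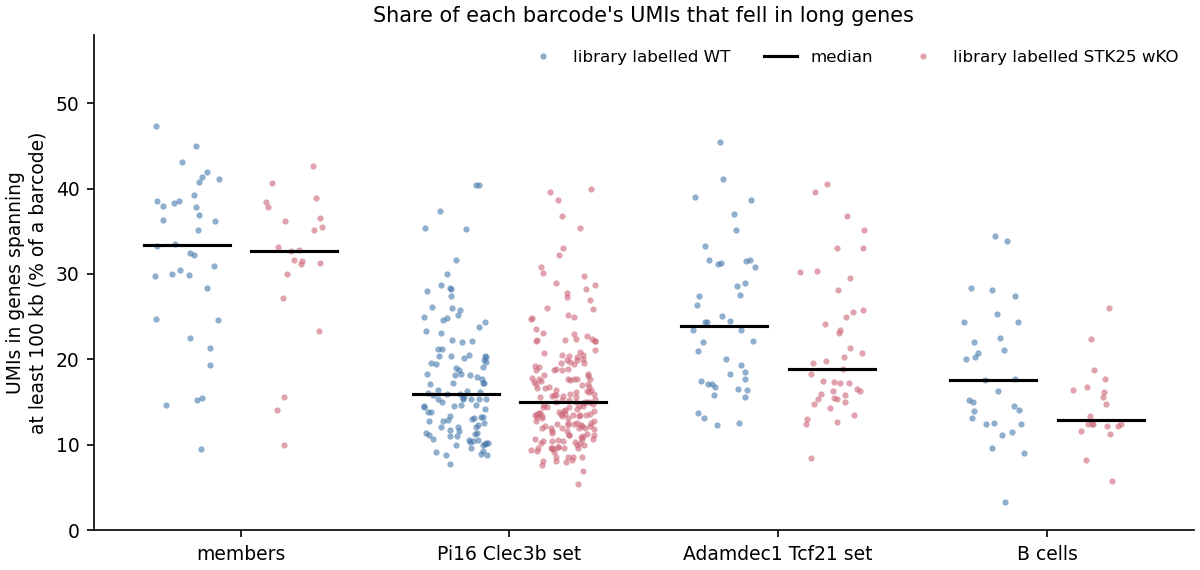
Share of each barcode's UMIs in genes that span at least 100 kb, in members, the Pi16 Clec3b set, the Adamdec1 Tcf21 set and B cells of both libraries, with the median of each. Members have medians of 33.4% in the WT library and 32.7% in the STK25 wKO library, above those of the other sets.

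Against the Pi16 Clec3b set, members were higher in Esr1, Plcb4, Auts2 and other genes, most of them long, and lower in genes under 100 kb such as Ly6a and Igfbp4. A gene counted as higher or lower when its log2 ratio, with 10 CPM added, was at least 1 in size in the same direction in both libraries; it needed at least 40 UMIs over both sets in each library. Of 1424 genes, 150 were higher in members (10.5%) and 146 lower (10.3%). Of the 150, 137 (91.3%) spanned at least 100 kb, against 29.4% of all genes tested, and none of the 146 lower genes did. The lower genes included 42 ribosomal protein genes.

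Among the higher genes, Esr1, the oestrogen receptor alpha gene, stood at 395 CPM in WT members against 30.6 CPM in the WT Pi16 Clec3b set (log2 ratio 3.69, 2.57 to 5.01), and at 1133 against 74.5 CPM in the STK25 wKO library (3.93, 3.37 to 4.50). It was detected in 8 of 36 WT and 15 of 22 STK25 wKO members, with highest values of 16 and 13 UMIs. Plcb4, a phospholipase C that acts downstream of Gq-coupled receptors, had log2 ratios of 3.56 (2.49 to 4.80) and 3.22 (2.37 to 4.10). Of its 28 UMIs in STK25 wKO members, 9 lay in the smooth muscle barcode, and without that barcode its level there was 300 CPM. Auts2, a nuclear regulator of transcription, stood at 1443 against 164 CPM and 1120 against 127 CPM. The transcription factor genes Sox5 (log2 ratios 3.02 and 2.17) and Mitf (3.01 and 2.41), the engulfment adaptor Gulp1 (2.41 and 2.97) and the membrane scaffold Ank2 (2.37 and 2.49) were also higher. All of these genes span over 100 kb.

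Lower in members were Ly6a, the Sca-1 surface antigen of many mesenchymal progenitors, at 310 against 1521 CPM in the WT library and 227 against 1767 CPM in the STK25 wKO library. Its relative Ly6c1 had log2 ratios of -3.46 and -4.47. The interferon-induced Ifi27l2a stood at 128 against 1085 CPM and 53.3 against 1495 CPM. Igfbp4, which binds insulin-like growth factors, stood at 331 against 1742 CPM and 173 against 2279 CPM, and the secreted protease inhibitor Serpina3n at 32.1 against 397 CPM and 13.3 against 434 CPM. Each was detected in fewer than 1 in 2 members of either library.

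By list, 6 of 13 measured universal fibroblast genes were lower in members and none higher, with medians of -0.91 and -1.55 against -0.07 and -0.11 over all genes. Complement genes had 5 of 8 lower and none higher, at medians of -1.27 and -1.68, with C3 at 791 against 1822 CPM in the WT library and 453 against 2916 CPM in the STK25 wKO library. The IGF binding protein list had 2 of 4 lower. None of 13 structural collagen genes and none of 17 immediate early and heat shock genes passed in either direction. All 3 measured genes of the PDGFRA interstitial cell list were higher, with medians of 2.15 and 1.65. Against the Adamdec1 Tcf21 set, none of 4 genes of that list was higher and 1 was lower, with medians of 0.0083 and -0.39.

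Pdgfra, the receptor that names those cells, was detected in 26 of 36 WT members (72.2%) and 13 of 22 STK25 wKO members (59.1%). In the Pi16 Clec3b set it was detected in 32.1% and 29.9% of barcodes, and in the Adamdec1 Tcf21 set in 54.5% and 48.8%. It stood at 716 and 613 CPM in members, 260 and 189 CPM in the Pi16 Clec3b set, and 766 and 802 CPM in the Adamdec1 Tcf21 set. Gucy1a1, the nitric oxide receptor subunit of interstitial and smooth muscle cells, gave 26 UMIs in WT members, 25 of them in members led by Adamtsl3 or Kcnn3. In the STK25 wKO library 8 of its 16 UMIs lay in the 5 members led by these genes and 8 in the smooth muscle barcode.

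Against the Adamdec1 Tcf21 set, members were higher in Ebf1, Meis1 and Slit3, and lower in Bmp5, Sox6 and Cxcl14. Of 861 genes, 65 were higher in members (7.55%) and 85 lower (9.87%). Long genes made up 51 of the 65 higher and 17 of the 85 lower, against 33.8% of those tested. Ebf1, a transcription factor of adipose and vascular stroma, stood at 994 against 24.7 CPM in the WT library (log2 ratio 5.33, 3.92 to 7.23) and 2480 against 87.6 CPM in the STK25 wKO library (4.82, 4.01 to 5.76). Meis1, a homeobox factor, had log2 ratios of 3.96 and 2.39. The secreted guidance cue Slit3 stood at 3281 against 321 CPM and 1680 against 424 CPM, and the fibril-associated collagen gene Col14a1 at 374 against 43.3 CPM and 493 against 60.6 CPM.

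Bmp5, a ligand of fibroblasts near the crypt top, had no UMI in members of either library, against 513 and 559 CPM in the Adamdec1 Tcf21 set. The transcription factor Sox6 had 0 and 1 UMI, against 439 and 647 CPM. Cxcl14, a chemokine, had 1 and 2 UMIs, against 1039 and 526 CPM. Col12a1 stood at 53.4 against 624 CPM and 93.3 against 1186 CPM, Igfbp5 at 192 against 1688 CPM and 133 against 2500 CPM, and Tmem176b at 85.5 against 1601 CPM and 107 against 1624 CPM. Both measured telocyte genes, 3 of 4 Wnt and BMP modulators, all 3 IGF binding protein genes and 5 of 13 structural collagen genes were lower, and 1 collagen gene was higher. Of 807 genes measured against both sets, 43 were higher and 25 lower in members than in each.

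**Figure D4:**
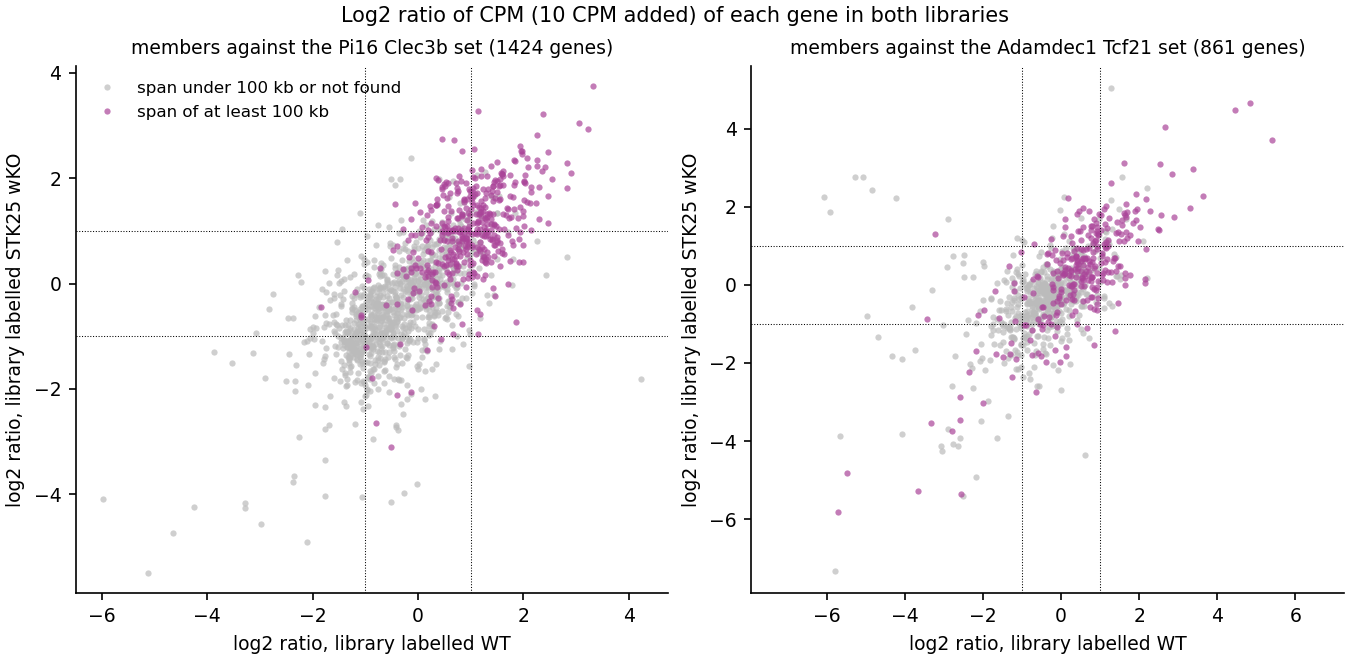
Log2 ratio of members to the Pi16 Clec3b set (left) and to the Adamdec1 Tcf21 set (right) in each library, 1 point per gene, with genes that span at least 100 kb in a second colour. Long genes make up 137 of the 150 genes higher than the Pi16 Clec3b set and none of the 146 lower.

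A further comparison used only barcodes of the sets with a long-gene share at or above the members' lower quartile, a choice made after the values were seen. The matching uses the UMIs of long genes, which made up most of the higher genes, so it narrows their ratios in part by its construction. That left 11 WT and 8 STK25 wKO barcodes of this set and 294 genes, of which 8 were higher in members (2.72%) and 4 lower (1.36%). Of the genes that differed before and could still be measured, 2 of 64 remained higher and 1 of 40 lower. By list, none of 2 complement genes (medians -0.35 and -0.29) and none of 4 universal fibroblast genes (-0.49 and -0.36) was lower, and 1 of 2 PDGFRA interstitial cell genes was higher. Plcb4 kept log2 ratios of 3.87 and 2.32 and Gulp1 of 2.21 and 1.26, whereas Auts2 went to 2.89 and 0.39 and Esr1 to 2.83 and 0.53. The members' values here include the smooth muscle barcode. Ly6a, at -1.17 and -0.40, and Igfbp4, at -0.60 and -0.59, also came closer to 0.

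The same matching was applied to the Adamdec1 Tcf21 set. With 16 WT and 7 STK25 wKO barcodes left and 346 genes measured, 21 genes were higher in members (6.07%) and 23 lower (6.65%). Of the genes that differed before, 13 of 41 remained higher and 11 of 20 lower. Ebf1 kept 3.63 and 6.35, Col14a1 2.22 and 4.02, Auts2 5.16 and 3.62 and Tmem176b -2.87 and -3.47, while Slit3 went to 2.39 and 0.30 and Igfbp5 to -0.55 and -5.68. Fewer barcodes in the matched sets also lowered the number of genes that could be called.

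Between libraries, members of the STK25 wKO library had lower levels of Eln and 5 of 12 structural collagen genes than WT members, and higher levels of Adamtsl1, Has1, Postn and Klf6. The libraries' members were led by different genes, as described above, so these differences cannot be told apart from a difference in which cells the rule took. A gene was counted when it had at least 40 UMIs over both libraries and a log2 ratio, with 10 CPM added, of at least 1 in size. Of 690 genes, 72 were higher in the STK25 wKO members (10.4%) and 58 lower (8.41%), around a median of -0.018. Without the smooth muscle barcode 57 of 627 were higher (9.09%) and 55 lower (8.77%).

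Structural collagen genes had 5 of 12 lower and none past the threshold upwards, although 3 lay above 0, with a median of -0.83 (-0.70 without the smooth muscle barcode). Pan-fibroblast genes had 4 of 11 lower and none higher, with a median of -0.80 (3 of 11 and -0.56 without that barcode). These lists share collagen genes and Dcn or Lum with the stromal condition of the rule. Dcn, which encodes the collagen-binding proteoglycan decorin, gave 401 and 148 UMIs (log2 ratio -1.12, -1.40 to -0.84), with a median of 3.5 and 4.5 UMIs per member and highest values of 83 and 72. The medians per member were thus no lower in the STK25 wKO library. The smooth muscle barcode had no UMI of Dcn. Without it the log2 ratio of Dcn was smaller in size and did not reach the threshold. Col3a1 gave 236 and 102 UMIs (-0.89) with medians of 3.5 and 4, and Col1a2 149 and 79 UMIs (-0.60). The direction turned in larger or stricter sets: whatever the Pi16 and Adamdec1 sums, Dcn had a log2 ratio of 0.058 and Col3a1 of 0.14, and with 2 of the 6 genes detected Dcn had 0.22, Col1a2 0.56 and the pan-fibroblast list a median of 0.065. Of the 135 WT UMIs of Col1a1, 59 lay in 1 member, which also held 96 of the 143 WT UMIs of Sparc, a collagen-binding glycoprotein. Without the member that held most UMIs of the gene in each library, Col1a1 had a log2 ratio of -0.80 and Sparc of -0.68, against -1.44 and -2.03 with them.

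Eln, the elastin gene, gave 113 UMIs in 17 WT members and 15 UMIs in 8 STK25 wKO members (-2.59, -3.48 to -1.81), and 72 of the WT UMIs lay in the 8 members led by Rxfp1, Myoc or Angptl1. Within that lead group it stood at 2916 CPM in the WT library and 220 CPM in the STK25 wKO library, or 274 CPM without the smooth muscle barcode, which was in that group. Of these 72 WT UMIs, 38 lay in 1 member, so the WT level of the group rests in large part on it. Without the member that held most UMIs of Eln in each library, the log2 ratio over all members was -2.66. Hmcn2, a hemicentin of the matrix, gave 38 and 5 UMIs, and Col8a1, a short-chain collagen gene, 37 and 6. Arhgap24, a GTPase-activating protein of Rac, gave 141 and 25 UMIs, with 61 in 1 WT member. Pdzrn3, a ubiquitin ligase, gave 74 UMIs in 25 members and 13 UMIs in 8 members (-2.19, -3.17 to -1.33). Dlg2, a membrane scaffold best known from synapses, gave 44 and 2 UMIs (-4.14, -7.23 to -2.20).

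Most of the WT UMIs of Dlg2 and Pdzrn3 sat in the members led by Adamtsl3 or Kcnn3, which the STK25 wKO library had in smaller number. Those 14 WT members held 40 of the 44 WT UMIs of Dlg2 and 46 of the 74 of Pdzrn3. The 5 STK25 wKO members led by the same genes had 0 and 4 UMIs, or 0 against 1175 CPM for Dlg2 and 389 against 1352 CPM for Pdzrn3. Scara5, a ferritin receptor of fibroblasts, gave 29 of its 39 WT UMIs in the 12 members led by C7. Epsti1 gave 41 and 1 UMIs, with 38 in 1 WT member, and Ptn 37 and 4 UMIs, with 24 in 1 WT member.

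Higher in the STK25 wKO members was Adamtsl1, a relative of Adamtsl3, with 17 UMIs in 12 WT members and 80 UMIs in 17 STK25 wKO members (log2 ratio 2.55, 1.79 to 3.40). Its median was 0 UMIs per WT member and 2 per STK25 wKO member, and its highest value 4 and 13. It was higher in each lead group, at 97 against 2889 CPM in members led by C7, 88 against 2234 CPM in those led by Adamtsl3 or Kcnn3, and 405 against 693 CPM in those led by Rxfp1, Myoc or Angptl1 (865 CPM without the smooth muscle barcode). The STK25 wKO members led by C7 were only 2, and 1 of them held 13 UMIs of Adamtsl1, so the level of that group rests mostly on 1 barcode. Klf6, an early-response transcription factor, gave 11 and 47 UMIs (2.41, 1.45 to 3.51). By lead group, in the same order, it stood at 193 against 2708, 59 against 1360 and 81 against 304 CPM. These values rest on few counts: 13 STK25 wKO UMIs lay in 1 of the 2 members led by C7, and the WT value of 81 CPM was 2 UMIs.

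Has1, a hyaluronan synthase, gave 17 UMIs in 3 WT members and 72 UMIs in 8 STK25 wKO members (2.40, 1.62 to 3.26). Postn, the matrix protein periostin, gave 10 and 49 UMIs (2.61, 1.61 to 3.76), with 21 in 1 STK25 wKO member. Sned1, a matrix glycoprotein, gave 9 UMIs in 7 members and 57 UMIs in 8 members, all 57 in those led by Rxfp1, Myoc or Angptl1. Prrx1, a mesenchymal homeobox factor, gave 11 and 42 UMIs, with 11 of the 42 in the smooth muscle barcode. Without the member that held most UMIs of Prrx1 in each library, its log2 ratio was 2.29. Sqstm1, the autophagy receptor p62, gave 25 and 79 UMIs. Of the 79 STK25 wKO UMIs of Sfrp2, a secreted Wnt modulator, 76 lay in 1 member.

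Esr1 is given by lead group, with 1 WT member holding a large part of its WT UMIs. Over all members it gave 37 and 85 UMIs, a log2 ratio of 1.52 (0.95 to 2.12). Within members led by Rxfp1, Myoc or Angptl1 it stood at 1256 CPM in the WT library and 1369 CPM in the STK25 wKO library (1582 CPM without the smooth muscle barcode), and those members held 31 of the 37 and 81 of the 85 UMIs. Of these 31 WT UMIs, 16 lay in 1 member, so the WT level of the group rests in large part on it. Without the member that held most UMIs of Esr1 in each library, the log2 ratio over all members was 2.14. Ebf1 gave 93 and 186 UMIs (1.32, 0.95 to 1.69) and was higher in the STK25 wKO library in each lead group, at 1000 against 3430, 676 against 2720 and 1539 against 2349 CPM. As above, the STK25 wKO value for members led by C7 rests on few cells.

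Contractile and CAF activation genes rested on the smooth muscle barcode. All 6 measured smooth muscle markers were higher in the STK25 wKO members, at a median of 6.65, and none had 40 UMIs once that barcode was left out. The 10 CAF activation genes together stood at 973 CPM in WT members and 12692 CPM in STK25 wKO members, or 1518 CPM without it. Acta2, which encodes the alpha smooth muscle actin of activated fibroblasts, went from a log2 ratio of 6.93 to -1.76 (-7.32 to 1.40), and Vim from 1.74 to -0.063 (-0.91 to 0.75). Fap, at 7 and 10 UMIs, and S100a4, at 3 and 8 UMIs, were too few to compare.

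The ligand and receptor genes of the study's question were mostly at low counts in members. Egfr, the receptor of amphiregulin, had the most, at 83 UMIs in 24 of 36 WT members and 66 UMIs in 14 of 22 STK25 wKO members. The levels were 887 and 880 CPM, a log2 ratio of -0.012 (-0.50 to 0.47). No difference was thus detectable over all members, but these were led by different genes in each library. The interval covers counting error in that total and does not bound differences within a lead group. Among members led by Rxfp1, Myoc or Angptl1, without the smooth muscle barcode, Egfr gave 14 UMIs in the WT library (567 CPM). In the STK25 wKO library it gave 59 UMIs in that group (1245 CPM). Egfr was detected in 66.7% and 63.6% of members, against 25% and 35.3% of the Pi16 Clec3b set and 29.5% and 34.9% of the Adamdec1 Tcf21 set. Against the Pi16 Clec3b set its log2 ratios were 2.13 and 2.46, and 0.91 and 1.24 with the matched barcodes. Against the Adamdec1 Tcf21 set, with 10 CPM added, they were 2.89 and 1.74, and 1.95 and 0.53 with the matched barcodes. Areg itself gave 1 UMI in each library's members. Ackr3, an atypical chemokine receptor, gave 16 and 15 UMIs, Mif 19 and 11, Gas6 17 and 10, and its receptor gene Axl 12 and 15.

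Other lists gave less. Immediate early and heat shock genes had 2 of 17 higher in the STK25 wKO members and none lower, at a median of 0.12 (-0.03 without the smooth muscle barcode). Neuronal adhesion and guidance genes had 3 of 8 lower and none higher, at a median of -0.88, 1 of them being Kcnn3 of the rule. The 7 measured complement genes had a median of -0.52 (-0.28 without the smooth muscle barcode), and matrix remodelling genes had 1 of 7 higher and 2 lower. The proteoglycan and elastic fibre list had 1 of 8 higher and 3 lower, and without the smooth muscle barcode none of 7 higher and 1 lower, Eln. No cell cycle gene reached 40 UMIs.

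**Figure D5:**
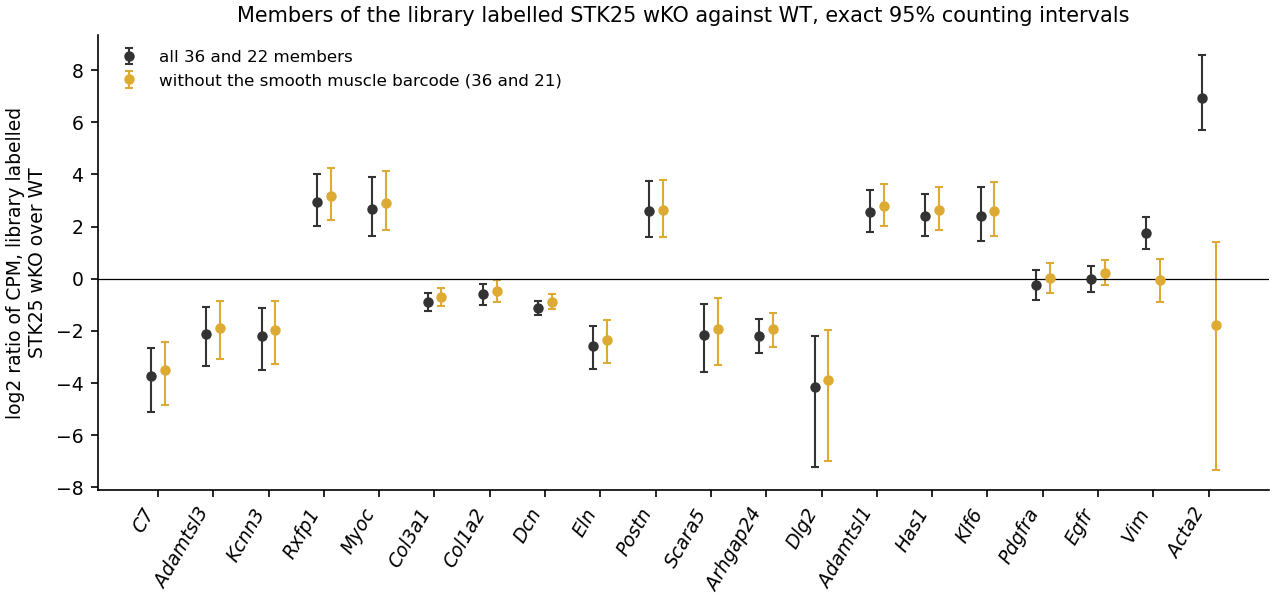
Log2 ratio of STK25 wKO to WT members for named genes, with exact 95% counting intervals, with and without the smooth muscle barcode. Dlg2 and Eln lie below 0 and Adamtsl1, Has1 and Klf6 above it in both versions, while Vim moves to -0.063 without that barcode. C7, Adamtsl3, Kcnn3, Rxfp1 and Myoc chose the members, so their points are a description only.

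Over all stromal barcodes, the genes whose per-barcode level went most closely with the 6-gene sum were Mir99ahg (Spearman's rho 0.41 in the WT library and 0.41 in the STK25 wKO library), Meis1 (0.37 and 0.36), Ebf1 (0.34 and 0.38) and Thbs2 (0.33 and 0.34). This ranking used 7438 genes over 514 and 657 barcodes, which share a library and differ in depth and long-gene share, and it is a description only. Thbs2, a thrombospondin of the matrix, spans 28.7 kb and so is not a long gene.

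Markers of other cell types were present in members at low levels. A UMI of Ptprc, Cd3e, Cd3d, Cd79a or C1qa was found in 13 WT members (36.1%) and 4 STK25 wKO members (18.2%). The shares were 29.5% and 26.6% in the Pi16 Clec3b set, and 15.9% and 25.6% in the Adamdec1 Tcf21 set. Of the 117 WT UMIs of C7, 54 lay in those 13 members. Epithelial genes Epcam, Krt8, Krt18 and Cldn7 summed to at least 3 UMIs in 13 WT members (36.1%) and 16 STK25 wKO members (72.7%), against 27.7% and 57.1% of the Pi16 Clec3b set and 52.3% and 60.5% of the Adamdec1 Tcf21 set. The part of these transcripts in the differences between libraries was not tested.

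By list, 8 epithelial markers stood at 1325 and 1813 CPM in members and at 602 and 1009 CPM in B cells. Neutrophil markers gave 6 and 56 UMIs, or 64.1 and 747 CPM, beside 195 and 1373 CPM in the Pi16 Clec3b set, so they moved alike in both fibroblast sets. T cell markers gave 16 and 0 UMIs, B cell markers 9 and 1, plasma cell markers 24 and 19, macrophage markers 14 and 37, endothelial markers 10 and 5, and pericyte markers 11 and 13. Of the 18 STK25 wKO UMIs of the interstitial cell of Cajal list, 9 were Kit in the smooth muscle barcode. Sox10 and S100b of the enteric glia list and Msln and Upk3b of the mesothelial list were at 0 in both libraries' members.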

How the data were processed

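Raw UMI counts per gene and barcode were deposited by the authors as 1 matrix per library, made with Cell Ranger 7.1.0 per the file headers against mm10; Seurat is also named per the labels, with no role given. The labels name the 10x chemistry as v2 or v3 without saying which. Members and gene lists were chosen with earlier results of these data known. UMIs were summed over the barcodes of a set and library, scaled to CPM and given exact Poisson intervals. Log2 ratios of single genes carry exact conditional binomial intervals and no added value; ranks, lists and calls used log2 ratios with 10 CPM added and at least 40 UMIs. Shares carry Clopper-Pearson intervals, and the bounds of a ratio of shares combine those of both shares. No test was run, since each group is 1 library and cells are not replicates.

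Gene spans came from GENCODE M21 (GRCm38), which covered 32158 of 32285 genes, 2804 of them at least 100 kb long. B cells and leukocytes, which overlap, were called from marker genes and had under 2 matrix UMIs. Named genes were the 6 genes of the rule; the 12 higher and 8 lower genes with the largest log2 ratio in the library where it was smaller, against each fibroblast set; the 15 largest log2 ratios in each direction between libraries; the 8 largest in each direction between the Myoc and Angptl1 side and the other side, ties left out; the 4 members of each list with most UMIs; the study's genes; and the 10 genes closest to the 6-gene sum. The genes given by lead group and the single-member values were picked after their values were seen. Some items are not reported here. Doublets were not removed; removing the highest Scrublet scores (scanpy 1.11.5, seed 0) took 1 member from each library. Interval code was tested on simulated data: for the STK25 wKO against WT comparison over 690 genes, at least 96% of the true ratios lay inside their intervals. The simulated counts had counting error only, as the intervals assume, and no spread between barcodes. The result checks the code and not how well the intervals cover these data. Python 3.11.15, numpy 2.4.6, scipy 1.17.1 and pandas 2.3.3 were used.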

Additional observations from a re-analysis of the deposited data

How the results depend on the processing

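No paired analysis was possible because each group is 1 library. Other limits on members moved the shares. The WT share of kept barcodes was 0.406% when barcodes needed 500 genes and no more than 10% mitochondrial UMIs, and 0.187% with no immune UMI (4.47% of stromal barcodes). With at least 2 of the 6 genes detected, the shares were 0.171% and 0.0720% of kept and 4.09% and 1.52% of stromal barcodes in the WT and STK25 wKO libraries. With an epithelial sum under 3 they were 0.187% and 0.0432% of kept, a ratio of 0.231 (0.0564 to 0.791). Whatever the Pi16 and Adamdec1 sums, they were 1.14% and 0.908% of kept and 27.2% and 19.2% of stromal barcodes. Over all alternatives the ratio stayed below 1, at 0.231 to 0.795 of kept and 0.275 to 0.704 of stromal barcodes. Each alternative still counted members by the 6-gene sum, so the level of those genes enters every ratio. After thinning each barcode to 1000 UMIs, 3.03% of WT and 41.7% of STK25 wKO members lay on the Myoc and Angptl1 side.

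Counts of genes between libraries, 72 higher and 58 lower as reported, were 169 and 164 with at least 20 UMIs, 27 and 16 with at least 80 UMIs, 42 and 38 without the 5 deepest members of each library, and 26 and 58 with an epithelial sum under 3, where 6 STK25 wKO members remained and 31.0% of the genes past the threshold were higher in place of 55.4%. Against the Pi16 Clec3b set, 58 genes were higher with an epithelial sum under 3, and 8 higher and 4 lower with matched barcodes. Against the Adamdec1 Tcf21 set, 30 were higher with 2 of the 6 genes detected, 8 higher and 28 lower with an epithelial sum under 3, and 21 higher and 23 lower with matched barcodes.

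List medians between libraries changed as follows. With 2 of the 6 genes detected, pan-fibroblast genes went to 0.065 and neuronal adhesion genes to -2.05; with a sum of at least 3 the latter went to -0.043. An epithelial sum under 3 took universal fibroblast genes to 1.40 and complement genes to -1.48. Without immune UMIs the 6 genes went to 2.16, and whatever the Pi16 and Adamdec1 sums to -0.18, with pan-fibroblast genes at -0.022, proteoglycan genes at 0.083 and smooth muscle markers at 3.82. Without the 5 deepest members pan-fibroblast genes were at -0.22. The other 142 values stayed within a band around the main median, set by the median half-width of the counting intervals of the list's genes. That band is not an interval of the median itself.

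Among single genes whose main interval excluded 0, the following changed direction, on the log2 scale. With 2 of the 6 genes detected, Cd55 went to -1.41, Col1a2 to 0.56, Dcn to 0.22 and Egr1 to 0.019. With a sum of at least 3, Egr1 went to 0.087, Lgals1 to -0.059, Lsamp to 0.93 and Vim to -0.31. With an epithelial sum under 3, Egr1 went to 0.27, Lgals1 to -2.15, Tnfaip6 to -2.27 and Vim to -1.34. Without immune UMIs, Adamts1 went to -0.032 and Tnfaip6 to -1.18. Whatever the Pi16 and Adamdec1 sums, Col3a1 went to 0.14, Dcn to 0.058, Esr1 to -0.053 and Igfbp6 to 0.31. Without the 5 deepest members Lgals1 went to -0.46 and Vim to -0.26, without the smooth muscle barcode to -0.33 and -0.063, and as a mean of per-barcode CPM Lgals1 went to -0.097. Of 127 named genes with at least 40 UMIs, 77 had an interval that excluded 0, and these were 12 of the 77. Changes of sign in the other genes were not counted. Of all single-gene values, 206 left their main interval without counting as a change of direction, and 1344 stayed inside it. The cause was not tested. Leaving out the smooth muscle barcode, dropping the Pi16 and Adamdec1 conditions and matching on long genes were chosen after seeing the data.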
